A study of Bos taurus with 31 samples.

Results

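Antigen presentation by MHC class I and class II molecules was examined in the mammary epithelium of dairy cows through 10 named genes. They are the class I light chain gene B2M, the peptide transporter genes TAP1 and TAP2, the peptide loading gene TAPBP, the class I transactivator gene NLRC5, the class II invariant chain gene CD74, the class II loading and chain genes BOLA-DMA, BOLA-DMB and BOLA-DRA, and the class II transactivator gene CIITA. The genes were chosen by name, and 8 of the 10 were found by that name in the deposited count table. BOLA-DMA and BOLA-DRA were not analysed here. The 8 names filled 9 of 14084 rows, and these rows held 7 distinct counted loci of 13407, because TAP1 and TAP2 carried the same counts in every library.

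RNA was sequenced from mammary epithelial organoids, which are clusters of epithelial cells freed from gland biopsies. The virgin group had 15 libraries from heifers of 14 months, and the lactating group had 16 libraries from cows at 40 to 60 days of lactation. Of the 16 animals, 15 were sampled as heifers and again as cows, and 1 has a lactating library alone (L495). No treatment or genotype separates the groups in the labels. Lactating cows were also older, had calved and were sampled later, and the data cannot tell these apart from lactation itself, even within 1 cow. Libraries are named below by the first letter of the stage and the number of the animal, so V478 and L478 came from 1 cow. With each locus counted once, total counts ran from 12477568 to 38794104 in virgin and from 17637505 to 45478555 in lactating libraries. In bulk RNA a lower level can come from fewer cells of a type or from less RNA per cell, and the data cannot tell these apart.

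Class I molecules sit on nearly all nucleated cells and show peptides from proteins made inside the cell. Each is a heavy chain paired with beta-2 microglobulin, loaded in the endoplasmic reticulum with peptides that the TAP transporter brings in and that tapasin helps to fit. Class II molecules are built mainly by dendritic cells, macrophages and B cells, where the invariant chain CD74 fills the groove until the DM protein swaps its remnant for a peptide in the endosome, and epithelia under interferon-gamma can make them too. NLRC5 switches on class I genes and CIITA class II genes, both without binding DNA themselves.

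Several of these loci are counted in ways that touch every value below. TAP1 (ENSBTAG00000008953) and TAP2 (ENSBTAG00000003037) formed 1 counted locus of 44108 bases, given here as TAP1/TAP2, so a change in one of these genes cannot be told apart from a change in the other. In the RefSeq table of assembly ARS-UCD2.0 the gene PSMB8 lies between them, and it had a row and counts of its own in these data. TAPBP (ENSBTAG00000016828) shared its counts with ZBTB22, WDR46 and RGL2 in a locus of 20726 bases, so its level is the level of 4 neighbouring genes. B2M (ENSBTAG00000012330) had a counted locus of 20651 bases, 2.49 times its RefSeq span. The counted lengths of CD74 (ENSBTAG00000015228), BOLA-DMB (ENSBTAG00000012451), NLRC5 (ENSBTAG00000005413) and CIITA (ENSBTAG00000020649) were 9720, 6844, 107477 and 58568 bases. Relative to RefSeq gene spans with their introns, BOLA-DMB and CIITA stood at 1.00 and 0.99, and CD74 and NLRC5 at 1.25 and 1.15. The TAP1/TAP2 locus was 2.68 times the summed span of its genes, and the TAPBP locus 0.70 times. Levels are therefore not ranked between genes here.

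Lactating organoids carried more RNA of the class I light chain, of the peptide transporter and of the class I transactivator, and no class II gene of the set was called. In the fit that pairs the libraries of each animal (replicate block), BOLA-DMB was called higher too, at a log2 fold change of 0.86 (adjusted p = 0.00497). NLRC5, B2M and TAP1/TAP2 rose, which is 3 of 7 loci, and 0 loci fell (edgeR quasi-likelihood test over all 13180 rows tested, Benjamini-Hochberg adjusted p under 0.05). Over all rows 24.2% were called higher and 30.9% lower, or 55.1% in either direction. The median log2 fold change of the 7 loci was 0.54, beside -0.08 over all rows tested. No member locus passed the test for a change over 2-fold, which 5.39% of all rows passed as higher. NLRC5 alone passed at 1.5-fold (adjusted p = 0.00629), which 10.7% of all rows passed as higher. Scaling bears on these values: with total counts in place of TMM scaling the median over all rows was -0.56 with 1389 rows higher and 7751 lower, against 3189 and 4069 with it, and NLRC5, B2M and TAP1/TAP2 stayed called higher while CD74 and TAPBP were called lower.

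**Figure D1:**
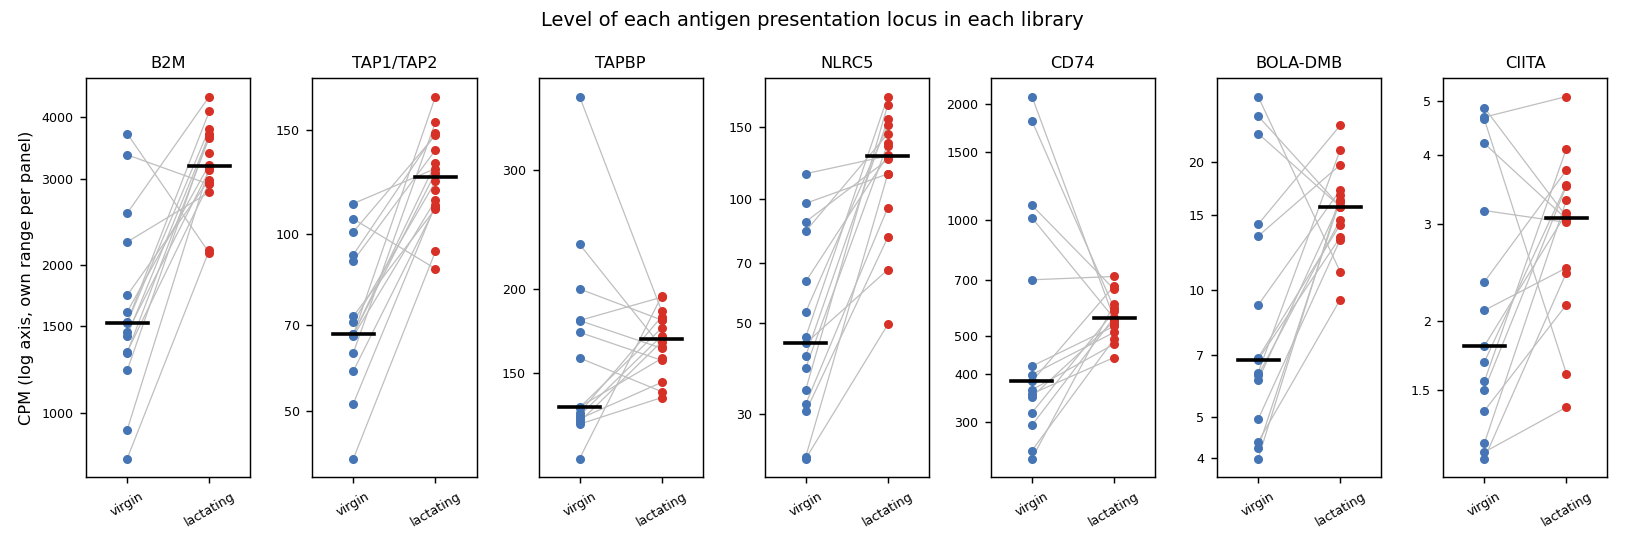
Counts in each library scaled by its TMM-adjusted total (CPM, on a log axis with its own range in each panel) of the 7 loci in 15 virgin (blue) and 16 lactating (red) libraries. Grey lines join the 2 libraries of an animal and black bars are group medians. The lactating medians of B2M, TAP1/TAP2, NLRC5 and BOLA-DMB lie far above the virgin ones, though BOLA-DMB was not called (edgeR test, adjusted p = 0.0727). The virgin libraries of CD74 split into an upper 5 and a lower 10.

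B2M encodes beta-2 microglobulin, the invariant light chain that every classical class I heavy chain needs to reach the cell surface. Its level, as counts scaled by the TMM-adjusted library total (CPM), ran from 807 to 3703 in virgin libraries with a median of 1524, and from 2117 to 4406 CPM in lactating libraries with a median of 3180. The groups overlapped, because V581 and V478 were as high as many lactating libraries, and only 3 of 16 lactating libraries lay above all virgin ones. The means were 1783 ± 834 (SD, n = 15) and 3256 ± 628 CPM (SD, n = 16), a log2 fold change of 0.87 ± 0.17 (SE, adjusted p = 9.1e-05). Within animals B2M was higher in lactation in 13 of 15. The exceptions were the pairs of V581 and V478, the libraries with the highest virgin B2M.

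TAP1 and TAP2 encode the paired subunits of the transporter that carries cytosolic peptides into the endoplasmic reticulum. TAP1/TAP2 ran from 41.6 to 112 CPM in virgin libraries (median 67.5) and from 87.2 to 171 CPM in lactating libraries (median 125). Of the 16 lactating libraries, 11 lay above every virgin one, and L478 was the lowest of the rest. The mean went from 75.2 ± 20.5 to 126 ± 22.2 CPM (SD), a log2 fold change of 0.74 ± 0.12 (SE, adjusted p = 5.6e-06). It was higher in lactation in 14 of 15 animals, with the pair of V478 the exception.

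TAPBP encodes tapasin, which holds empty class I molecules at the transporter until a peptide fits. Its joint locus ran from 112 to 386 CPM in virgin libraries (median 133) and from 138 to 195 CPM in lactating ones (median 168). The lactating range lay inside the virgin range, whose top was V479. The log2 fold change was -0.00 ± 0.13 (SE), with a 95% interval of -0.26 to 0.26 (adjusted p = 0.992), and 9 of 15 animals were higher in lactation. Without V479 the log2 fold change was 0.14 (adjusted p = 0.204).

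NLRC5 encodes the transactivator that the promoters of B2M, TAP1 and class I heavy chain genes answer to. It ran from 23.3 to 115 CPM in virgin libraries (median 44.5) and from 49.5 to 178 CPM in lactating libraries (median 128). The virgin maximum was V531, 10 of 16 lactating libraries lay above it, and L478 was the lowest lactating library. NLRC5 had the largest change of the 7 loci, from 54.3 ± 28.8 to 123 ± 35.6 CPM (SD), which is a log2 fold change of 1.18 ± 0.22 (SE, adjusted p = 2.5e-05) or 2.27-fold. It was the only member locus higher in lactation in 15 of 15 animals, as were 7.41% of all rows tested. The within-animal rise ran from 0.14 (V531 to L531) to 2.30 (V502 to L502) on the log2 scale.

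The rest of the class I route moved less evenly. The heavy chain locus listed as JSP.1, BOLA and BOLA-NC1, which are class I heavy chain names that share 1 set of counts, ran from 337 to 2013 CPM in virgin and from 622 to 1404 CPM in lactating libraries. Its means were 892 ± 539 and 942 ± 193 CPM (SD), a log2 fold change of 0.08 ± 0.21 (SE, adjusted p = 0.771). Heavy chain genes are near-identical copies and differ between animals, so counts of this locus are uncertain. The locus was counted over 175985 bases and also carries ENSBTAG00000005146. A separate row named BoLA, outside the list and not used in the ratios below, had medians of 214 CPM in virgin and 252 CPM in lactating libraries. Of 8 tested heavy chain and class I-like loci, 3 rose and 0 fell, with a median of 0.16, while 2 were called higher and 1 lower without TMM scaling, and 1 was called higher without the 5 animals whose virgin title carries a letter. CD1E, a CD1 family relative kept inside the cell, rose by 2.83 ± 0.40 (log2, SE) from low levels of 0.0288 to 1.65 CPM in virgin libraries. AZGP1, a secreted class I-like protein, rose by 1.02 ± 0.32, and MIC1, a stress-linked class I-like gene, rose by 0.66 ± 0.24, though MIC1 was at 0.07 (adjusted p = 0.813) without TMM scaling. FCGRT, the heavy chain of the neonatal Fc receptor, stood at 0.21 ± 0.18 (adjusted p = 0.32).

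Among 16 genes that make, trim or load class I peptides, 2 rose and 3 fell, with a median log2 fold change of 0.08, and without TMM scaling 1 was called higher and 9 lower. LNPEP, an aminopeptidase of the endosomal route, rose from a median of 41.1 to 80.6 CPM (log2 fold change 0.99 ± 0.14, SE, 15 of 15 animals). TAPBPL, a tapasin relative that edits peptides, rose by 0.42. The immunoproteasome genes PSMB8, PSMB9 and PSMB10, whose products cut proteins into peptides that suit class I, stood at 0.37, 0.07 and 0.18, and none of the 3 was called. The 3 genes that fell encode proteins of the endoplasmic reticulum. The chaperone gene HSPA5 fell by 1.11 on the log2 scale, PDIA3, which builds disulfide bonds in the loading complex, fell by 0.47, and CANX, which folds new heavy chains, fell by 0.47. CALR, the calreticulin of the loading complex, stood at -0.12 (adjusted p = 0.406). In the replicate block fit, with the animal as a term, 4 of the 16 were called higher and 3 lower.

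**Figure D2:**
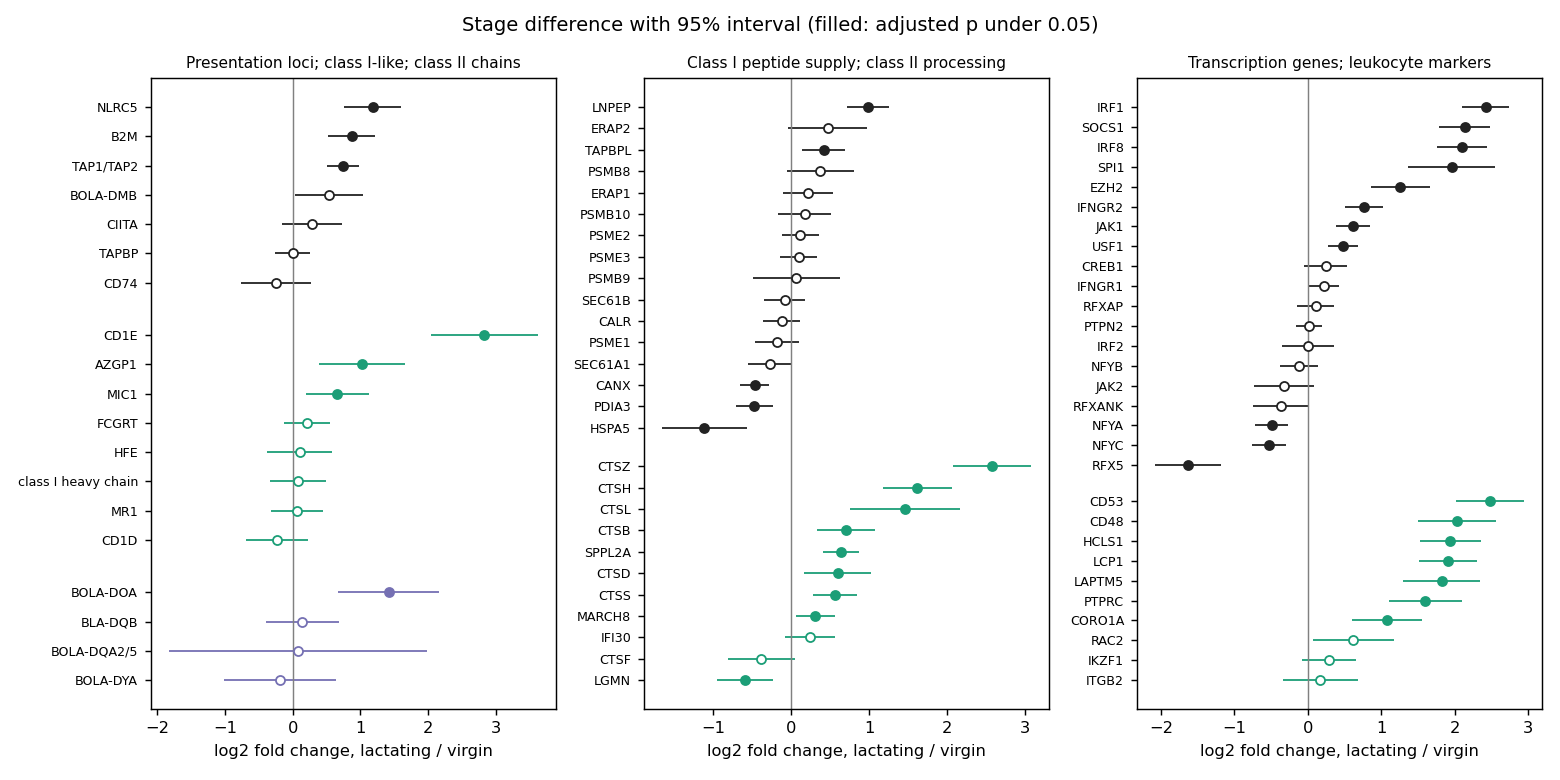
Log2 fold change of lactating over virgin with 95% intervals, where filled points had an adjusted p under 0.05. Left panel: the 7 loci (black), class I and class I-like heavy chains (green) and class II chains (purple). Middle: class I peptide supply (black) and class II processing (green). Right: MHC transcription genes (black, 19 of the 20 tested) and leukocyte markers (green). NLRC5, B2M and TAP1/TAP2 are filled on the left, while the class I heavy chain locus, CD74 and BOLA-DMB are open. Without TMM scaling CD74 and TAPBP were called lower.

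CD74 encodes the invariant chain, the chaperone of new class II molecules. It ran from 241 to 2088 CPM in virgin libraries (median 382) and from 441 to 714 CPM in lactating libraries (median 556). All 16 lactating libraries lay above the virgin median, yet the highest virgin libraries exceeded all of them. The mean was 671 ± 582 in virgin and 565 ± 73.1 CPM (SD) in lactating libraries, so means and medians went opposite ways. The log2 fold change was -0.25 ± 0.26 (SE, adjusted p = 0.434, 95% interval -0.76 to 0.26), with 11 of 15 animals higher in lactation. With the replicate block, which compares each cow with itself, the value was 0.15 (adjusted p = 0.594), and without TMM scaling it was -0.59 (adjusted p = 0.0205).

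BOLA-DMB encodes the beta chain of the DM peptide editor, which works as a pair with the product of BOLA-DMA. It ran from 3.98 to 28.6 CPM in virgin libraries (median 6.83) and from 9.47 to 24.5 CPM in lactating libraries (median 15.7). The pattern was that of CD74, and also of the joint TAPBP locus: every lactating library was above the virgin median, and the virgin top lay above the lactating top. The log2 fold change was 0.54 ± 0.26 (SE, adjusted p = 0.0727), higher in 12 of 15 animals. With the replicate block it was 0.86 and called (adjusted p = 0.00497), as it was without V478 (0.72, adjusted p = 0.0116), without V479 (0.66, adjusted p = 0.0247) or without V581 (0.67, adjusted p = 0.0208). With limma-voom it was also called (0.87, adjusted p = 0.0027), and likewise without L478 and L538 (0.61, adjusted p = 0.0492).

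CIITA encodes the master coactivator of class II genes and was the locus with the fewest reads of the set. It ran from 1.13 to 4.87 CPM in virgin libraries (33 to 370 counts) and from 1.40 to 5.10 CPM in lactating libraries (44 to 150 counts). The medians were 1.80 and 3.07 CPM and the ranges overlapped almost wholly. The log2 fold change was 0.29 ± 0.23 (SE, adjusted p = 0.283), with a 95% interval of -0.15 to 0.73 and 11 of 15 animals higher in lactation. Without TMM scaling it was -0.14 (adjusted p = 0.593).

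Of 4 tested loci of other class II chains, 1 rose and 0 fell, with a median of 0.11, and without TMM scaling the counts were again 1 and 0. BOLA-DOA, whose product holds DM back, rose by 1.41 ± 0.38 (log2, SE), from a median of 0.147 to 0.606 CPM. These levels are low, and with a filter of 1 CPM in 15 libraries 2 loci of the list were tested and 0 were called higher. BLA-DQB, a class II beta chain of the DQ kind, stood at 0.14 ± 0.28, with medians of 46.9 and 82.9 CPM. BOLA-DYA, a ruminant class II alpha chain gene, was near the low end of detection at 0.131 to 3.20 CPM in virgin libraries and stood at -0.18 ± 0.42, a value that turned positive in the replicate block fit (0.24).

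The endosomal enzymes that prepare class II ligands were a list with more calls. Of 11 tested genes 8 rose and 1 fell (median 0.60), while 2 rose and 2 fell without TMM scaling, and 4 rose without those 5 animals. CTSZ, a carboxypeptidase, rose from a median of 3.87 to 28.2 CPM (log2 fold change 2.58 ± 0.26, SE). CTSH, an aminopeptidase of the same family, rose by 1.62 ± 0.22, and CTSL, which trims the invariant chain in epithelium of the thymus, rose by 1.46 ± 0.36, the latter with an adjusted p of 0.0567 without TMM scaling. SPPL2A, a membrane protease that clears the last stub of the invariant chain, rose by 0.64 ± 0.12 and was at 0.15 (adjusted p = 0.392) without TMM scaling. LGMN, the asparagine-specific endopeptidase that begins invariant chain cleavage, fell by 0.59.

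Transcription factors that act on MHC promoters, and the interferon-gamma route to the transactivators, gave 8 genes that rose and 3 that fell of 20 (median 0.18), against 5 and 10 without TMM scaling. IRF1, the interferon-induced factor that acts on the NLRC5 and CIITA promoters, ran from 39.5 to 111 CPM in virgin and from 162 to 527 CPM in lactating libraries. The groups did not overlap for IRF1, as held for 1.15% of all rows in the higher direction, and the log2 fold change was 2.42 ± 0.16 (SE, adjusted p = 5.7e-13). SOCS1, a feedback brake on interferon signalling, rose by 2.13 ± 0.18, and IRF8, a factor of myeloid and B cells, rose by 2.09 ± 0.17. The receptor chain gene IFNGR2 rose by 0.76 and the kinase gene JAK1 by 0.61.

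RFX5 went the other way. It encodes a subunit of the RFX complex, the DNA-bound platform on which both CIITA and NLRC5 work. RFX5 ran from 13.2 to 82.5 CPM in virgin libraries (median 46.4) and from 10.3 to 17.4 CPM in lactating libraries (median 14.2). Most virgin libraries were high, while all lactating libraries were low and close together. RFX5 fell by 1.63 ± 0.23 (log2, SE, adjusted p = 4.2e-07) and was higher in lactation in 1 of 15 animals. NFYA and NFYC, subunits of the factor that binds the neighbouring Y box, fell by 0.49 and 0.53, while the third subunit gene, NFYB, stood at -0.12 (adjusted p = 0.471). The RFX partners RFXANK and RFXAP stood at -0.37 and 0.10 (adjusted p = 0.115 and 0.517).

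Of 7 tested costimulatory and inhibitory genes, which include the receptor genes CD40 and LAG3, 6 rose and 0 fell, and 5 and 0 without TMM scaling. TNFSF9, the one not called, stood at 0.23 (adjusted p = 0.553). CD83, a surface protein that marks mature dendritic cells and steadies MHC class II, rose from a median of 18.8 to 140 CPM (log2 fold change 2.78 ± 0.23, SE). CD274, the inhibitory ligand PD-L1, rose by 1.60 ± 0.21, CD80, a ligand of CD28, by 2.91 ± 0.40, and CD40, the receptor through which T cells license presenting cells, by 1.13 ± 0.21. Of 23 tested interferon-stimulated loci 15 rose and 0 fell (median 1.40), and 12 rose and 2 fell without TMM scaling. Among them CXCL10, a chemokine for T cells, rose by 2.79 ± 0.26, and IRF9, the DNA-binding part of the type I interferon complex, by 1.79 ± 0.17.

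Most tested markers of leukocytes were called higher in lactating libraries. Of 10 pan-leukocyte markers 7 rose and 0 fell (median log2 fold change 1.71), and their summed level ran from 24.7 to 93.5 CPM in virgin and from 100 to 198 CPM in lactating libraries. CD53, a tetraspanin of all leukocytes, rose by 2.48 ± 0.24. Of 15 macrophage and monocyte markers 14 rose, with sums of 34.8 to 122 and 162 to 653 CPM, and CD14, the endotoxin coreceptor of monocytes, rose by 3.46 ± 0.28. CSF1R, the receptor that macrophages live on, rose from a median of 2.70 to 11.5 CPM (2.11 ± 0.27). All 12 tested T and NK cell markers rose, with sums of 5.13 to 36.3 and 25.6 to 71.1 CPM. Dendritic cell markers summed to at most 10.4 and 10.7 CPM, with 2 of 5 tested loci called higher. The B cell marker list had 1 tested locus, CR2, at most at 1.74 CPM in any library, while CD79A was under the count filter. All 12 endothelial markers rose as well, with sums of 35.7 to 840 and 284 to 1914 CPM. The labelled epithelium was present at both stages, with 17 epithelial markers summing to 3550 to 16968 and 2918 to 5746 CPM, of which 2 rose and 9 fell. Ratios to the pan-leukocyte list and relations with it within a stage are given below, and the share of the class I and class II results that leukocytes account for was not tested.

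Ratios to the leukocyte markers put the members beside that change. The ratio of each locus to the mean of the pan-leukocyte list, and to the class I heavy chain locus, and the ratios between the loci gave 35 comparisons of log2 ratios between stages (permutation of stage labels, two-sided, 100000 resamples, Benjamini-Hochberg over the 35). Library scaling cancels in them, apart from the small prior count in the leukocyte ratios. They were chosen after the single-locus results were seen, and 19 passed an adjusted p of 0.05. Relative to the leukocyte list, CD74 was lower in lactation by 1.45 on the log2 scale, and the ratio was higher in 1 of 15 animals (permutation p = 1e-05, the smallest these resamples can give, adjusted 7e-05). The mean log2 ratio of TAPBP to the list went from 5.77 to 4.27, and the ratio was lower by 1.16 for CIITA, 0.80 for TAP1/TAP2, 0.74 for BOLA-DMB and 0.60 for B2M, each past the threshold. For NLRC5 it was 0.28 lower, with an adjusted p of 0.38. The ratio to the leukocyte list was thus lower in lactation for 6 of 7 loci, and for NLRC5 no difference was detected.

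Ratios within the class I route separated the light chain and the transporter from the heavy chain. The B2M to heavy chain ratio rose by 0.70 on the log2 scale, from a mean of 1.09 ± 0.52 to 1.79 ± 0.36 (SD), and was higher in 14 of 15 animals (permutation test, adjusted p = 8.7e-05). The TAP1/TAP2 to heavy chain ratio rose by 0.50 in 13 of 15 animals (adjusted p = 0.00862), and TAP1/TAP2 to TAPBP by 0.70 in 14 of 15 (adjusted p = 7e-05). B2M to TAP1/TAP2 changed by 0.20 (adjusted p = 0.167), less than either SD of that ratio (0.36 and 0.32). NLRC5 relative to the heavy chain rose by 1.02 in 10 of 15 animals (adjusted p = 0.0204). Leaving out any single library kept the B2M to heavy chain change between 0.58 and 0.74.

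Between the classes, B2M to CD74 rose by 0.85 and was higher in 15 of 15 animals (permutation test, adjusted p = 7e-05). TAP1/TAP2 to CD74 rose by 0.65 and was higher in 14 of 15 (permutation test, adjusted p = 0.00414). Against BOLA-DMB no such shift of B2M or TAP1/TAP2 was detected. B2M to BOLA-DMB changed by 0.14 and TAP1/TAP2 to BOLA-DMB by -0.06 (permutation test, adjusted p = 0.529 and 0.778). TAPBP to CD74 changed by -0.05 (permutation test, adjusted p = 0.808). TAPBP to BOLA-DMB fell by 0.76 and was higher in 2 of 15 animals (permutation test, adjusted p = 0.0054). NLRC5 to CD74 rose by 1.17 and NLRC5 to BOLA-DMB changed by 0.46 (permutation test, adjusted p = 0.0149 and 0.365). B2M to CIITA changed by 0.55, not past the threshold (permutation test, adjusted p = 0.05001). BOLA-DMB relative to the class I heavy chain locus rose by 0.56 in 13 of 15 animals (permutation test, adjusted p = 0.00789). Within class II, CD74 to BOLA-DMB fell by 0.71, from a mean of 5.88 ± 0.35 to 5.17 ± 0.33 (SD), and was higher in lactation in 1 of 15 animals (permutation test, adjusted p = 8.7e-05). The SD of this ratio was small at both stages, although CD74 varied 8.66-fold and BOLA-DMB 7.18-fold between the lowest and the highest virgin library. Transactivator to transactivator, NLRC5 over CIITA rose by 0.87 in 12 of 15 animals (adjusted p = 0.0135). Exact sign flips over the 15 paired animals passed 19 of the 35 ratios too.

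**Figure D3:**
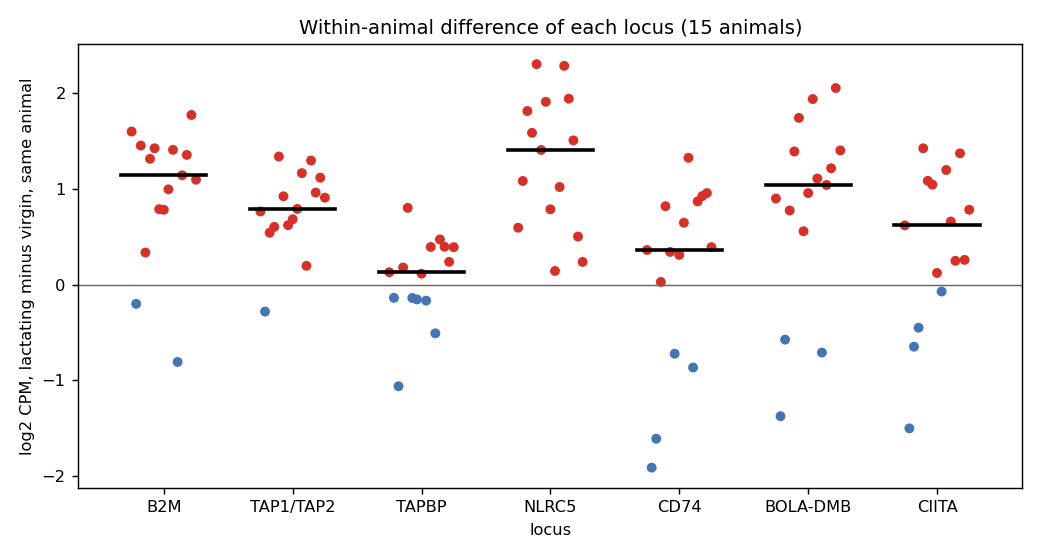
Difference of log2 CPM between the lactating and the virgin library of the same animal, for 15 animals at each of the 7 loci (red above 0, blue below, black bar the median). NLRC5 lies above 0 in 15 of 15 animals and B2M in 13, while CD74 spreads from -1.91 to 1.33.

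Virgin libraries differed from each other far more than lactating ones did, most of all for CD74. The SD of log2 CPM of CD74 was 1.01 in virgin and 0.18 in lactating libraries, a ratio of 5.48 that 0.137% of all rows tested reached. Over all rows the median ratio was 1.62, and the virgin SD was the higher one in 87.2% of rows. TAPBP (2.99), BOLA-DMB (2.90) and B2M (2.08) had ratios above that median, while CIITA (1.64) was close to it and TAP1/TAP2 (1.54) and NLRC5 (1.47) were below it.

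CD74 split the virgin libraries into an upper range of 700 to 2088 CPM, held by V478, V479, V490, V507 and V581, and a lower range of 241 to 419 CPM in the other 10. This split was seen in the data and is a description. In the upper 5 libraries BOLA-DMB ran from 13.4 to 28.6 CPM, above its range of 3.98 to 9.19 CPM in the lower 10. Class I loci were also higher in the upper 5, with some overlap. B2M ran from 1327 to 3703 CPM against 807 to 1736, and TAP1/TAP2 from 72.5 to 112 against 41.6 to 92.1. The heavy chain locus ran from 822 to 2013 CPM against 337 to 859. TAPBP (128 to 386 against 112 to 179 CPM) and CIITA (1.68 to 4.87 against 1.13 to 4.68 CPM) overlapped more. NLRC5 went the other way, from 23.3 to 41.5 CPM in the upper 5 and from 30.4 to 115 CPM in the lower 10. The summed leukocyte markers overlapped almost wholly, at 29.9 to 87.2 CPM in the upper 5 and 24.7 to 93.5 CPM in the lower 10, and the macrophage sums did so too, at 34.8 to 122 and 36.3 to 110 CPM. The within-animal change of CD74 ranged from -1.91 (V478 to L478) to 1.33 (V538 to L538). All 4 animals with lower CD74 in lactation were among the 5 with a virgin library in the upper range. This follows from the split itself, since the lower virgin range ended at 419 CPM and every lactating library was at 441 CPM or more.

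Relations between a transactivator and its class were examined within each stage over 10 pairs, and 1 passed (Pearson r on log2 CPM, two-sided permutation test with 100000 resamples, Benjamini-Hochberg over the 10). In the 16 lactating libraries NLRC5 and TAP1/TAP2 rose together, with r = 0.75 (permutation p = 6.4e-04, adjusted 0.0064) and Spearman's rho = 0.81 (adjusted permutation p = 0.003). Without L478 and L468, the libraries farthest from the NLRC5 median, r was 0.67, and leaving out single lactating libraries kept it between 0.63 and 0.86. NLRC5 with TAPBP gave r = 0.60 (adjusted permutation p = 0.0538) and rho = 0.76 (adjusted permutation p = 0.00465). NLRC5 with B2M gave r = 0.07 and rho = 0.24 in lactating libraries (adjusted permutation p = 0.854 and 0.417), so no relation of the light chain with the transactivator was detected from cow to cow.

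For CIITA in lactation, at counts of 44 to 150 per library, r was 0.10 with CD74 and -0.05 with BOLA-DMB (adjusted permutation p = 0.854 for each). Among the 15 virgin libraries 0 of 5 pairs passed, with 3 pairs at an unadjusted permutation p under 0.05. NLRC5 and B2M gave r = -0.59 and rho = -0.50 there (adjusted permutation p = 0.0538 and 0.151), and r = -0.72 without the 2 libraries farthest from the NLRC5 median. NLRC5 gave r = -0.44 with TAP1/TAP2 and r = -0.28 with TAPBP (adjusted permutation p = 0.173 and 0.466). CIITA with CD74 gave r = 0.59 and rho = 0.41 (adjusted permutation p = 0.0538 and 0.251), and with BOLA-DMB r = 0.57 and rho = 0.55 (adjusted permutation p = 0.0602 and 0.126). Both CIITA values, and that of NLRC5 with B2M, run across the separate upper and lower CD74 ranges. The upper range holds too few libraries for a relation of its own. Within the lower 10 libraries r was -0.06 for NLRC5 with B2M (adjusted permutation p = 0.969). For CIITA it was 0.09 with CD74 and 0.01 with BOLA-DMB there (adjusted permutation p = 0.969 for each). These 10 libraries were picked by their CD74 level, which narrows CD74 to 241 to 419 CPM and BOLA-DMB to 3.98 to 9.19 CPM. A low r among so few libraries of narrow range cannot show whether the virgin relations come from the split alone.

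**Figure D4:**
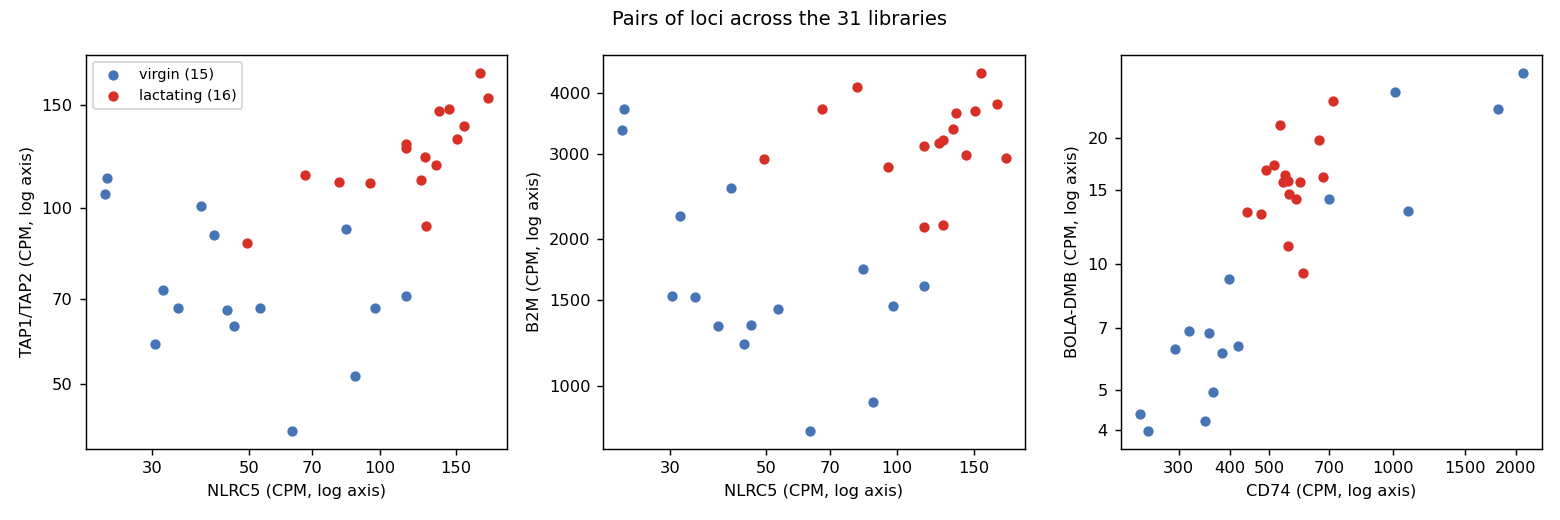
CPM of 3 pairs of loci in the 31 libraries (log axes; 15 virgin blue, 16 lactating red). Among lactating libraries NLRC5 and TAP1/TAP2 rise together (r = 0.75), NLRC5 and B2M show no such order (r = 0.07), and on the right the 5 virgin libraries with high CD74 also have high BOLA-DMB.

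Each locus was also set against the mean of the pan-leukocyte list within a stage, and 1 of 14 relations passed. BOLA-DMB followed the leukocyte mean among lactating libraries with r = 0.72 (permutation p = 0.0011, adjusted 0.0154) and rho = 0.72 (adjusted permutation p = 0.0368), and r was 0.75 without the 2 libraries farthest from the median. CD74 gave r = 0.53 there (adjusted permutation p = 0.186), and without TMM scaling r = 0.75 (adjusted permutation p = 0.00385). NLRC5 gave r = -0.11 and TAP1/TAP2 r = 0.15 (adjusted permutation p = 0.801 and 0.72), and r was 0.12 and 0.54 without the 2 farthest libraries. Between the virgin and lactating levels of an animal no relation was detected over the 15 pairs: 0 of 7 loci passed, with r from -0.09 (B2M) to 0.39 (NLRC5, permutation p = 0.156, adjusted 0.707), and 0 had an unadjusted p under 0.05. Without the 2 animals farthest from the virgin median r was 0.49 for B2M, 0.46 for BOLA-DMB, 0.46 for NLRC5, 0.42 for CD74, 0.08 for TAPBP, -0.02 for TAP1/TAP2 and -0.04 for CIITA.

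After removal of the stage means, the genes whose log2 CPM ran most like each locus over the 31 libraries differed by locus. For TAP1/TAP2 they were the immunoproteasome genes PSMB8 (r = 0.87), PSMB9 (r = 0.81) and PSMB10 (r = 0.75). PSMB8 and PSMB9 adjoin TAP1 in ARS-UCD2.0, and sharing of reads between them and the TAP1/TAP2 locus was not tested. BOLA-DMB ran with PSMB9 (r = 0.89), GTF3C1 (r = 0.88) and STAP2 (r = 0.86), and CD74 with SERPING1 (r = 0.90), the C1 inhibitor gene, INPPL1 (r = 0.89) and PSMB9 (r = 0.86). For CD74 these values came mainly from the virgin stage, since SERPING1 gave r = 0.93 within virgin and 0.43 within lactating libraries. Within lactating libraries INPPL1 gave r = 0.27 and PSMB9 r = 0.13 with CD74. STAP2 with BOLA-DMB gave r = 0.94 within virgin and 0.23 within lactating libraries. For TAP1/TAP2 the values within virgin and lactating libraries were 0.90 and 0.80 with PSMB8, and 0.92 and 0.48 with PSMB9.

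NLRC5 ran with genes of another kind. They were NOP56 (r = 0.92), a core protein of small nucleolar particles, NOP14 (r = 0.90), a factor for small ribosomal subunits, and DKC1 (r = 0.89), a pseudouridine synthase. The likeness of NOP56 held within virgin (r = 0.92) and within lactating libraries (r = 0.91). The stage differences of these genes went against that of NLRC5, at log2 fold changes of -0.33 for NOP56 (adjusted p = 0.126), -0.59 for NOP14 (adjusted p = 0.0069) and -0.38 for DKC1 (adjusted p = 0.0654). TAPBP ran with ARL2 (r = 0.92), B2M with SLC10A7 (r = 0.80) and CIITA with B4GALNT3 (r = 0.68). Within virgin and within lactating libraries these were 0.95 and 0.69 for ARL2, 0.81 and 0.74 for SLC10A7, and 0.82 and 0.15 for B4GALNT3. All of these likenesses are descriptions with no test.

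The authors' deposited table gave the same order at the top. Coded as lactating minus virgin, its log2 fold changes were 1.21 for NLRC5 (adjusted p = 3.6e-04), 0.90 for B2M (adjusted p = 0.0104) and 0.77 for TAP1 and TAP2 (adjusted p = 1.33e-04), in the authors' deposited table. For BOLA-DMB, CIITA, TAPBP and CD74 the authors' deposited table gave 0.56, 0.32, 0.02 and -0.23, each with an adjusted p of 1.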

How the data were processed

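Values used were read counts per gene as deposited by the authors, with no normalization. A second table held RPKM values, log2 fold changes and adjusted p-values deposited by the authors. Its fold changes are coded virgin minus lactating, so their sign was turned here. The build was UMD3.1 and the tools were featureCounts 1.5.2, StringTie 1.3.2, HISAT2 2.0, edgeR and SAMtools, per the submitters' processing notes. What each tool did, and with which settings, is not given in the sources used here. Locus lengths were recovered from the ratio of count to RPKM. Over 11605 loci with a single name, 65.8% lay within 10% of the RefSeq gene span (ARS-UCD2.0), introns included. No genome, promoter or protein table was used here, so no sequence or coordinate is printed.

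Counts were analysed with edgeR 4.0.16 in R 4.3.3: filterByExpr (minimum count 10, minimum total 15), TMM, robust glmQLFit and glmQLFTest with group as the only term, Benjamini-Hochberg over 13180 rows, and glmTreat for a change over 2-fold. The SE is the log2 fold change divided by the square root of F, and intervals are 95%. CPM uses the TMM-scaled library, log2 CPM has a prior count of 2, ratios between loci used log2 of counts with 0.5 added, and ratios to the leukocyte list used log2 CPM less the mean log2 CPM of its members. The edgeR and permutation steps were tested on simulated data.

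The 10 genes and all gene lists were chosen with earlier results of these data known. Named were all member genes, the 4 tested genes of each list with the smallest p, a called gene against its list's main direction, and, per locus, the 3 genes of average log2 CPM at least 2 with the highest r. TAPBPL, PSMB8, PSMB9, PSMB10, the heavy chain locus, IFNGR2, JAK1, CALR, TNFSF9, RFXANK, RFXAP, NFYA, NFYB and NFYC were added after their values were seen. Other genes the rule names are covered by the counts of their list, and a few list genes are not reported here by name.

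The animal number pairs the libraries, per the series design. After removal of stage means the libraries of a pair correlated at 0.0702 to 0.392 (mean 0.221), and other pairs at a mean of -0.016. The fit with the animal as a replicate block used the 30 paired libraries. Alternatives were other scalings, DESeq2 1.42.0, limma-voom (limma 3.58.1), other filters, each locus once, and libraries left out.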

Additional observations from a re-analysis of the deposited data

How the results depend on the processing

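Without TMM scaling 1389 rows were called higher and 7751 lower, 2 member loci were called lower, and 2 leukocyte relations passed. At a fold threshold of 1.5, 1 member locus passed. The replicate block, which pairs the libraries of an animal, called BOLA-DMB (0.86) and turned CD74 to 0.154, TAPBP to 0.0675 and BOLA-DYA to 0.235, and it changed no other member's call. NLRC5, B2M and TAP1/TAP2 stayed called under every alternative tried, including each single library left out, at 1.11 to 1.302, 0.80 to 0.96 and 0.69 to 0.79 in the latter. Values near 0 changed sign. TAPBP was 0.0696 with limma-voom, 0.00137 with no filter, 7.39e-04 without L478 and L538, and -0.042 to 0.138 with single libraries left out. CD74 was 0.112 with limma-voom. BOLA-DYA was 0.422 with DESeq2, 0.347 with limma-voom, 0.542 without the animals with a lettered virgin title, and -0.332 to 0.395 with single libraries left out. The BOLA-DQA5 row was -0.0859 with limma-voom, -0.0917 over the 30 paired libraries with no block, and -0.0917 to 0.527 with single libraries left out. Without TMM scaling CIITA was -0.138, FCGRT -0.163, BLA-DQB -0.207 and BOLA-DQA5 -0.306. The same scaling turned r to 0.363 for CIITA with BOLA-DMB (lactating), and, for the leukocyte mean, to -0.0779 with CD74 (virgin), 0.462 with TAPBP and 0.0953 with NLRC5 (lactating). It turned r of B2M between stages to 0.304. The cause of these changes was not tested. CIITA, at 33 to 370 counts, has the least precise level of the set.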

Other observations

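The class II alpha chain locus listed as BOLA-DQA2 and BOLA-DQA5 was present or near absent by animal and not by stage. In 6 animals (those of L468, L479, L502, L504, L507 and L531) both libraries held 0 to 12 counts. In 9 animals (those of L478, L490, L509, L538, L581, L595, L598, L610 and L615) both libraries held 565 to 4157 counts, which is 9.98 to 120 CPM. No animal changed side between the stages, and L495, with no virgin partner, held 3606 counts. The dividing count of 100 was set after the values were seen. The stage difference of this locus, 0.08 ± 0.97 (log2, SE, adjusted p = 0.949), is therefore a difference between mixed groups of animals. BLA-DQB, the beta chain row of the same kind, ran from 23.9 to 185 CPM in virgin and from 34.8 to 156 CPM in lactating libraries, with no library near 0. DQ genes differ between cattle in number and sequence, and whether reads of some animals failed to align to this locus was not tested.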
